A study of Homo sapiens with 6 samples.

Results

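The IL1 family is a set of cytokines of inflammation, here described through 10 genes in PC-3 tumors: the cytokines IL1A, IL1B, IL18 and IL33, the antagonists IL1RN and IL18BP, the receptor chains IL1R1, IL1R2 and IL1RAP, and the protease CASP1. They were found by symbol among the 24000 gene entries of the deposited table, and all 10 were listed, CASP1 in an entry joined with CARD17. The 6 samples were xenografts of PC-3, a human prostate cancer line that grows without androgen, in nude mice, 3 from vehicle-treated mice and 3 from mice treated with WCE, an extract of the herb Wedelia chinensis. The labels state 10 weeks of treatment without a dose. The paper gives a shorter treatment for its PC-3 growth experiment and different daily doses in its results and methods, so the dose of these tumors is not known. The paper describes oral WCE, PC-3 cells that carry firefly luciferase, and injection into the anterior prostate of male athymic hosts, obtained at an age of 6 weeks. Athymic nude mice lack mature T cells and keep myeloid cells, and neither the labels nor the paper mentions pooling of tumors. RNA was sequenced from stranded mRNA libraries and values are FPKM, fragments scaled to transcript length and to the number mapped in the library, which allows levels of different genes to be compared.

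IL1α and IL1β bind IL1R1, which then recruits the accessory chain IL1RAP and signals through MYD88 and IRAK kinases to NFκB. IL1RN occupies IL1R1 without signaling, and IL1R2 is a decoy receptor that binds IL1 but lacks the signaling domain. IL1β and IL18 are made as inactive precursors that caspase-1, activated in inflammasomes, cleaves, and IL18BP is a secreted protein that captures mature IL18. IL33 is a nuclear cytokine released from damaged epithelial and stromal cells, and its receptor is IL1RL1 together with IL1RAP. Messenger RNA levels do not show how much of a precursor is cleaved.

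The deposited table places IL1A at chr2:113531492-113542971, IL1B at chr2:113587337-113594356 and IL1RN at chr2:113875470-113891593, with starts counted from 1. The submitters' processing notes name hg19 and mm10 without giving their roles. RefSeq promoter windows were found for 8 of the 10 members, not for IL18 and CASP1. The 250 bases before the first listed start of these neighboring genes, whose levels had the same 3 highest tumors, are shown from GRCh38.p14, 5′ to 3′ on the strand of the gene, with matches to AP-1 (TGANTCA), to the TATA letters (TATAAA) and to the κB consensus in capitals, searched on both strands.
IL1A, chr2:112784494-112784743, minus strand: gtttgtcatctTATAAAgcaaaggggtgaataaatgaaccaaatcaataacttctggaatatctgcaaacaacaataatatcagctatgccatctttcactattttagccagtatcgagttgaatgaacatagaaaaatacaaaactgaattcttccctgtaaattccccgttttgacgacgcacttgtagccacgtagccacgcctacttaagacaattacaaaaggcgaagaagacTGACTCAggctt
IL1B, chr2:112836780-112837029, minus strand: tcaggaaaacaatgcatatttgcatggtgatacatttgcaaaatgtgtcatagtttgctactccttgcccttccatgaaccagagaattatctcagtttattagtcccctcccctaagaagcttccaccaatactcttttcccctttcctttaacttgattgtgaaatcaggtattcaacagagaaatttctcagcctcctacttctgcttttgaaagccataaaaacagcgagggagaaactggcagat
IL1RN, chr2:113117721-113117970, plus strand: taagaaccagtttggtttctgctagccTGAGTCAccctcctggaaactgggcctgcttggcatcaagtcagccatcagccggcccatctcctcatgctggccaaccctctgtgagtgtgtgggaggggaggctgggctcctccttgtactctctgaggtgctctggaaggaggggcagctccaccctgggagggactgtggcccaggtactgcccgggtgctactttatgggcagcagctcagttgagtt
The IL1A window held an AP-1 match at −12 to −6 from the start and a TATAAA match at −239 to −234, and the IL1RN window held an AP-1 match at −223 to −217. The printed IL1B window held none of these letters, and none of the 3 held the κB consensus. Among 35116 promoter windows cut in the same way, 6.57% held TGANTCA, 10.7% TATAAA and 9.96% the κB consensus. RefSeq gives 2 windows for IL1A and 3 for IL1RN, and the FPKM table does not show which start was used.

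Vehicle replicate 3 and WCE replicate 1 carried nearly identical values despite their different labels, so the members tested are also compared without both. Over 1915 entries with a mean of at least 50 FPKM their median absolute log2 difference was 0.028, against 0.096 for the next closest pair of tumors, and over the 10 members it was 0.088, with a largest difference of 0.30 in IL33. Relative depth, read from the steps of low values with vehicle replicate 3 set to 100%, was 25.0% in WCE replicate 1 and between 64.8% and 85.2% in the other tumors. Absolute depth is unknown. The series calls them individual tumors, and p-values measure the spread between these 6 samples. Tests on all 6 count vehicle replicate 3 and WCE replicate 1 as independent tumors of opposite groups, although their values were nearly identical.

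IL18 was the most abundant member and IL1R1 the least. Mean levels over the 6 tumors fell from 68.3 FPKM for IL18 and 49.6 FPKM for IL1B to 12.4 FPKM for IL1RAP, 8.34 FPKM for the CASP1 entry, 7.46 FPKM for IL1RN, 4.68 FPKM for IL18BP, 2.50 FPKM for IL1A, 1.55 FPKM for IL33, 0.935 FPKM for IL1R2 and 0.175 FPKM for IL1R1. The ranges of neighbors in this order overlapped except between IL1B and IL1RAP and between IL1R2 and IL1R1. Within a tumor IL18 was above IL1B in 6 of 6 and IL1RAP above the CASP1 entry in 6 of 6, while IL1A was above IL33 in 4 of 6. Among these entries, listed under human gene symbols, transcript for IL1β, IL18 and the accessory chain was far above that for the signaling receptor of IL1. Receptor transcript of the mouse host may not be counted in them.

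**Figure D1:**
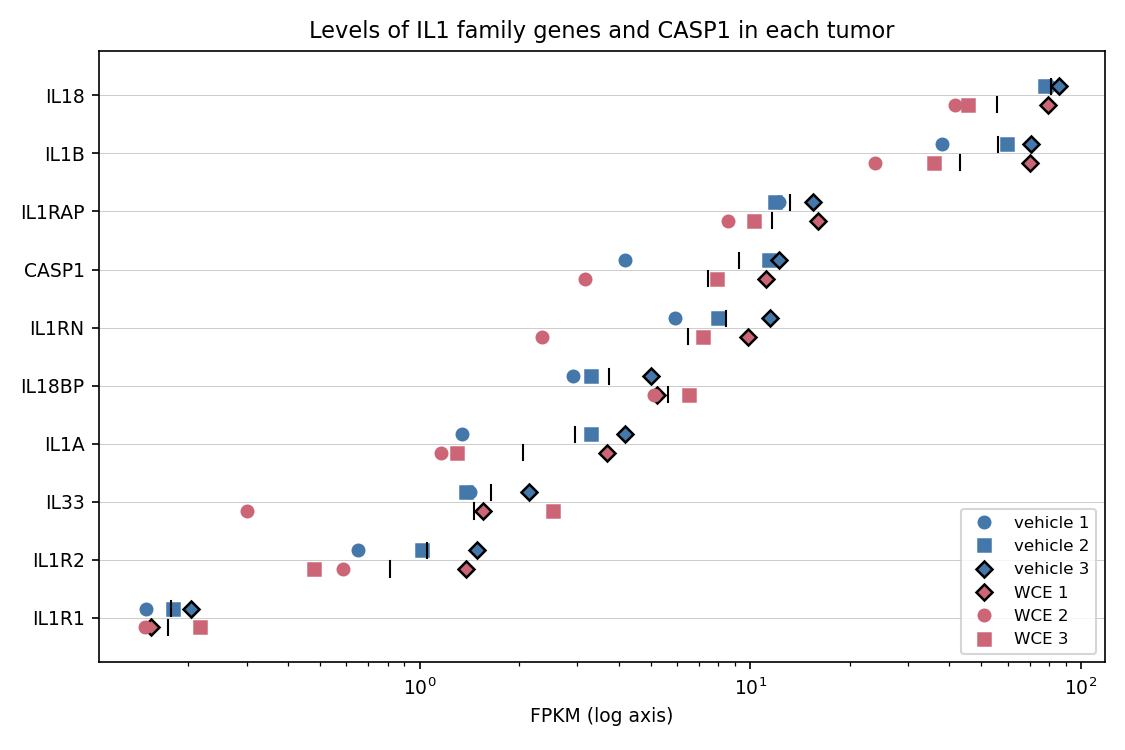
FPKM of the 10 members in each tumor on a log axis, with vehicle tumors in blue, WCE tumors in red and group means as black ticks. Black outlines mark vehicle replicate 3 and WCE replicate 1, which lie farthest apart in IL33 (2.14 and 1.55 FPKM), and the red points of IL18 other than WCE replicate 1 sit at 41.7 and 45.4 FPKM.

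Treatment was tested by limma on the log2(FPKM + 1) scale in 13287 entries whose mean reached 0.5 FPKM, and fold changes on this scale understate those of low genes. Of the 10 members 9 passed this filter. IL18 fell and IL18BP rose in WCE tumors at an unadjusted p under 0.05, 2 of 9 members, where 7.1% of all entries passed, 3.33% lower and 3.78% higher. The 502 higher and 442 lower entries became 218 higher and 704 lower under upper-quartile scaling, and IL18 (−0.61) and IL18BP (0.50) kept their directions. No member had an adjusted p under 0.05 (lowest 0.623 by limma with Benjamini-Hochberg adjustment), a threshold passed by 0.00753% of entries. Of the 9 members, 8 had a lower mean in WCE tumors, with a median log2 fold change of −0.30, beside 51.4% of all entries and a median of −0.0063.

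IL18 encodes a cytokine that drives interferon-γ production. It was at 79.9, 77.7 and 85.8 FPKM in vehicle tumors and at 79.6, 41.7 and 45.4 FPKM in WCE tumors. WCE replicates 2 and 3 were low, at 51.4% and 56.0% of the vehicle mean, whereas WCE replicate 1 lay among the vehicle tumors, at 98.1%, so the groups overlapped. The means were 81.1 ± 4.18 and 55.5 ± 20.9 FPKM (SD, n = 3 each), and the log2 fold change was −0.60 (standard error 0.23, 95% interval −1.12 to −0.070, unadjusted p = 0.0312 by limma). The exact permutation test over the 6 tumors gave a two-sided p of 0.2, where 0.1 is the smallest that 3 against 3 allow. Leaving out vehicle replicate 3 and WCE replicate 1 left only 2 tumors per group, here and below. It also removed the only WCE tumor at the vehicle level of IL18. The log2 fold change of IL18 was then −0.84 (standard error 0.10, p by limma 0.000385 unadjusted and 0.171 adjusted). In that comparison 18.4% of all entries passed the unadjusted threshold, 9.59% lower and 8.84% higher, and 0.0376% the adjusted one. The unadjusted p of IL18 by limma rose to between 0.0641 and 0.108 when any 1 tumor other than WCE replicate 1 was left out, and without WCE replicate 1 the log2 fold change was −0.88. With no filter on low values its p by limma was 0.0805.

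IL18BP, the soluble inhibitor of IL18, moved in the opposite direction. It was at 2.90, 3.30 and 4.99 FPKM in vehicle tumors and at 5.24, 5.11 and 6.54 FPKM in WCE tumors. Every WCE tumor was above every vehicle tumor, although vehicle replicate 3 and WCE replicate 1 differed little. Separation with higher values in WCE tumors was seen in 6.37% of all entries, lower values in 6.4%, and either in 12.8%. The means were 3.73 ± 1.11 and 5.63 ± 0.789 FPKM (SD, n = 3 each). The difference was 0.50 on the log2 scale (standard error 0.18, 95% interval 0.085 to 0.92, unadjusted p = 0.0245 by limma), and the two-sided exact permutation p was 0.1, the smallest possible. Without vehicle replicate 3 and WCE replicate 1 the log2 fold change of IL18BP was 0.73 (standard error 0.16, p by limma 0.00534 unadjusted and 0.179 adjusted). Its unadjusted p by limma passed above 0.05 without vehicle replicate 1 (0.0812), without vehicle replicate 2 (0.0803), without WCE replicate 3 (0.0918) and with no filter on low values (0.0573). The listed locus of IL18BP, chr11:71709958-71823822, is shared by 6 entries, among them NUMA1 and LAMTOR1, so reads of overlapping genes may have been divided among them.

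The log2 ratio of IL18BP to IL18, each as FPKM + 1, sets the inhibitor against its target within a tumor. It was −4.37, −4.19 and −3.86 in vehicle tumors and −3.69, −2.80 and −2.62 in WCE tumors. The groups did not overlap, with vehicle replicate 3 and WCE replicate 1 as the nearest values, and no test was made of a ratio built from these members. IL18BP by itself already separated the groups, so the separation of the ratio is not independent of it. The ratio of IL1RN to IL1B, in contrast, had means of −2.59 ± 0.15 and −2.59 ± 0.37 (SD, n = 3 each) and overlapped between the groups. IL1RN to IL1A (1.30 ± 0.25 and 1.23 ± 0.60) and IL1R2 to IL1R1 (0.78 ± 0.26 and 0.60 ± 0.40) overlapped as well.

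**Figure D2:**
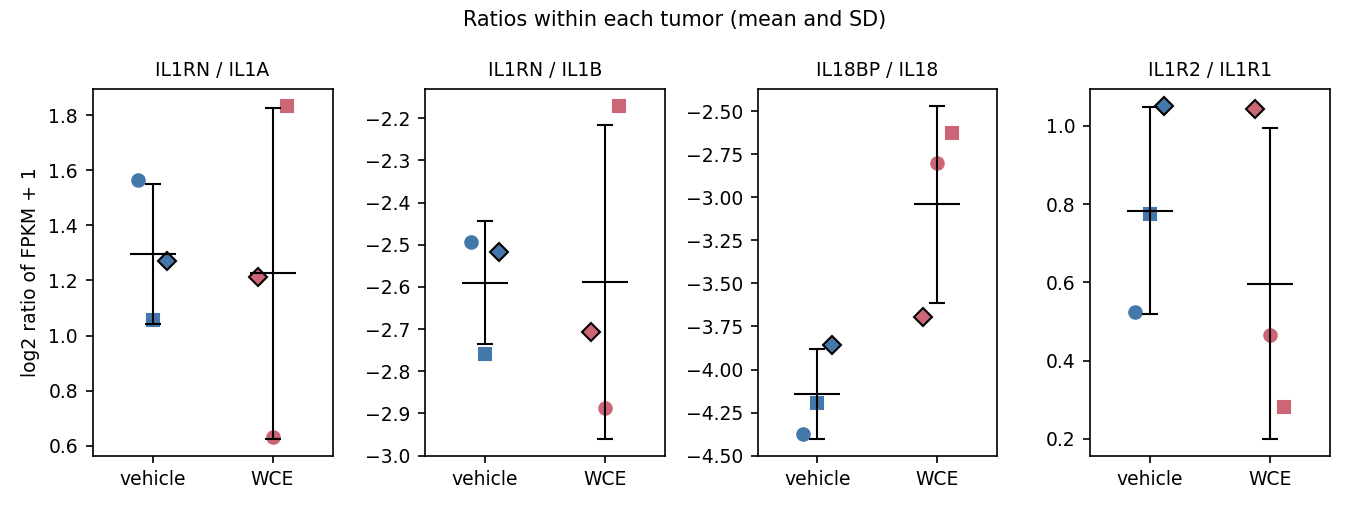
Log2 ratio of FPKM + 1 for 4 pairs of members in each tumor, with bars for the mean and SD of 3 tumors, vehicle in blue and WCE in red, and black outlines for vehicle replicate 3 and WCE replicate 1. The groups stand apart for IL18BP to IL18, from −4.37 to −3.86 against −3.69 to −2.62, and overlap in the other 3 panels.

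The IL1 cytokines themselves overlapped between the groups. IL1B was at 38.0, 59.6 and 70.5 FPKM in vehicle tumors and at 69.9, 23.8 and 35.9 FPKM in WCE tumors. WCE replicates 2 and 3 were the lowest of all tumors, WCE replicate 1 was nearly as high as vehicle replicate 3, and the groups overlapped. The log2 fold change of IL1B was −0.46 (standard error 0.38, 95% interval −1.35 to 0.43, unadjusted p = 0.263 by limma), and −0.69 (unadjusted p = 0.0576 by limma) without vehicle replicate 3 and WCE replicate 1. Leaving out 1 tumor moved it between −0.87 (unadjusted p = 0.0183 by limma), without WCE replicate 1, and −0.11 (unadjusted p = 0.748 by limma), without WCE replicate 2. It was −0.28 without vehicle replicate 3 and −0.71 without vehicle replicate 1.
IL1A, the form that is active without cleavage, was lower in level but followed IL1B tumor by tumor. It was at 1.35, 3.31 and 4.18 FPKM in vehicle tumors and at 3.68, 1.16 and 1.30 FPKM in WCE tumors. Its 6 tumors stood in the same order as those of IL1B, an order found in 0.361% of all entries tested. The log2 fold change of IL1A was −0.39 (standard error 0.38, 95% interval −1.27 to 0.49, unadjusted p = 0.333 by limma). With 1 tumor left out it was farthest from 0 without vehicle replicate 1 (−0.73) or WCE replicate 1 (−0.75), and nearest without vehicle replicate 3 (−0.16), WCE replicate 2 (−0.19) or WCE replicate 3 (−0.23), none past the unadjusted threshold.
IL33 had the widest fold range of FPKM, 8.43-fold between the lowest and the highest tumor, with the lowest at only 0.300 FPKM. On the log2(FPKM + 1) scale its SD over the 6 tumors was 0.50, below CASP1 (0.71), IL1RN (0.67), IL1B (0.62) and IL1A (0.59). IL33 was at 1.42, 1.38 and 2.14 FPKM in vehicle tumors and at 1.55, 0.300 and 2.53 FPKM in WCE tumors, so WCE held both extremes. Its log2 fold change was −0.21 (standard error 0.34, 95% interval −1.0 to 0.59, unadjusted p = 0.561 by limma). It was 0.19 once WCE replicate 2 was left out.

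IL1RN, the receptor antagonist, was at 5.93, 7.96 and 11.5 FPKM in vehicle tumors and at 9.86, 2.35 and 7.19 FPKM in WCE tumors. WCE replicate 2 stood lowest, and the other WCE tumors lay within the vehicle range. The log2 fold change of IL1RN was −0.46 (standard error 0.42, 95% interval −1.44 to 0.52, unadjusted p = 0.310 by limma). It was 0.038 once WCE replicate 2 was left out.
Among the receptor chains, IL1RAP was at 12.2, 11.9 and 15.5 FPKM in vehicle tumors and at 16.1, 8.57 and 10.3 FPKM in WCE tumors. The groups overlapped, with WCE replicate 1 the highest tumor and WCE replicates 2 and 3 the lowest. The log2 fold change of IL1RAP was −0.20 (standard error 0.22, 95% interval −0.71 to 0.30, unadjusted p = 0.373 by limma), and −0.33 (unadjusted p = 0.0502 by limma) without the nearly identical libraries. Once WCE replicate 1 was left out it was −0.44 (unadjusted p = 0.0224 by limma), and once WCE replicate 2 was left out it was −0.026 (unadjusted p = 0.904 by limma). It was −0.092 without vehicle replicate 3.
The decoy IL1R2 was at 0.652, 1.02 and 1.49 FPKM in vehicle tumors and at 1.38, 0.585 and 0.479 FPKM in WCE tumors. It too was low in WCE replicates 2 and 3, and its log2 fold change was −0.19 (standard error 0.23, 95% interval −0.73 to 0.35, unadjusted p = 0.434 by limma). For IL1R2 this became −0.40 without WCE replicate 1, −0.34 without vehicle replicate 1, −0.11 without WCE replicate 2, −0.061 without WCE replicate 3 and −0.042 without vehicle replicate 3, none past the unadjusted threshold. IL1R1, at 0.149, 0.179 and 0.203 FPKM in vehicle and 0.155, 0.148 and 0.217 FPKM in WCE tumors, stayed below the filter in each tumor. With no filter its difference was −0.0053 on the log2(FPKM + 1) scale (95% interval −0.086 to 0.075), a scale on which values this low can hardly differ.
The entry of CASP1, which converts the IL1β and IL18 precursors, was at 4.19, 11.4 and 12.2 FPKM in vehicle tumors and at 11.2, 3.17 and 7.92 FPKM in WCE tumors. Vehicle replicate 1 and WCE replicate 2 were low and the groups overlapped (log2 fold change −0.30, standard error 0.47, 95% interval −1.39 to 0.79, unadjusted p = 0.539 by limma). Without WCE replicate 2 the log2 fold change of the CASP1 entry was 0.14. Without vehicle replicate 3 and WCE replicate 1, the differences on the log2 scale were −0.51 for IL1A, −0.16 for IL33, −0.59 for IL1RN, −0.25 for IL1R2 and −0.39 for the CASP1 entry, none past the unadjusted threshold by limma. The locus, chr11:104896237-104972158, is shared with CARD16, and reads of CASP1, CARD17 and CARD16, which are close paralogs, could have been split by the counting.

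**Figure D3:**
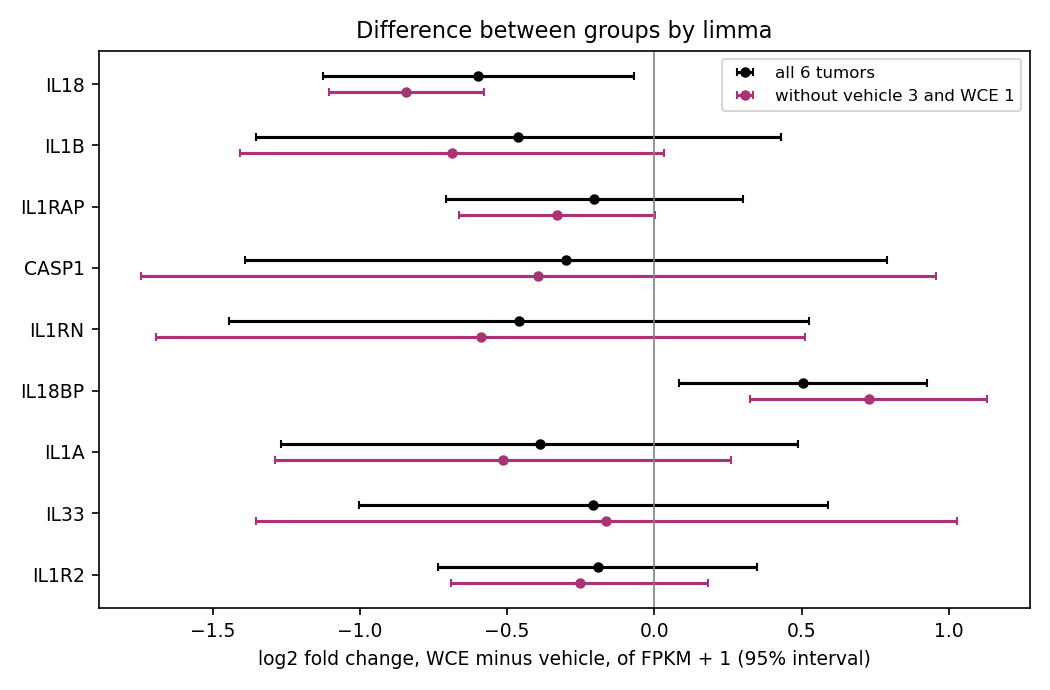
Log2 fold change (WCE minus vehicle, FPKM + 1) with 95% intervals by limma for the 9 members tested, with all 6 tumors in black and without vehicle replicate 3 and WCE replicate 1 in purple. Intervals of IL18 and IL18BP lie on one side of 0 in both comparisons and those of the other 7 members include 0.

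Seen by tumor, IL18BP was the only member of the 10 whose groups did not overlap, beside 12.8% of all entries tested. In 5 of the 9 members tested (IL1A, IL1B, IL1RN, IL1R2 and the CASP1 entry) vehicle replicate 2, vehicle replicate 3 and WCE replicate 1 were the 3 highest tumors, an arrangement found in 10.6% of all entries. WCE replicates 2 and 3 were the 2 lowest tumors in 5 of 9 members (IL1A, IL1B, IL18, IL1R2 and IL1RAP), beside 16.3% of all entries. WCE replicate 2 was the lowest tumor in 7 of 9 members, beside 17.4% of entries, and vehicle replicate 3 the highest in 6 of 9, beside 7.93%. These counts describe the members, which were not chosen independently of each other, and 2 of the 3 high tumors are the nearly identical libraries. WCE replicate 2 deviated most from the mean of the 6 tumors in IL1RN (−1.23 on the log2 scale), CASP1 (−1.03) and IL1B (−0.93).

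**Figure D4:**
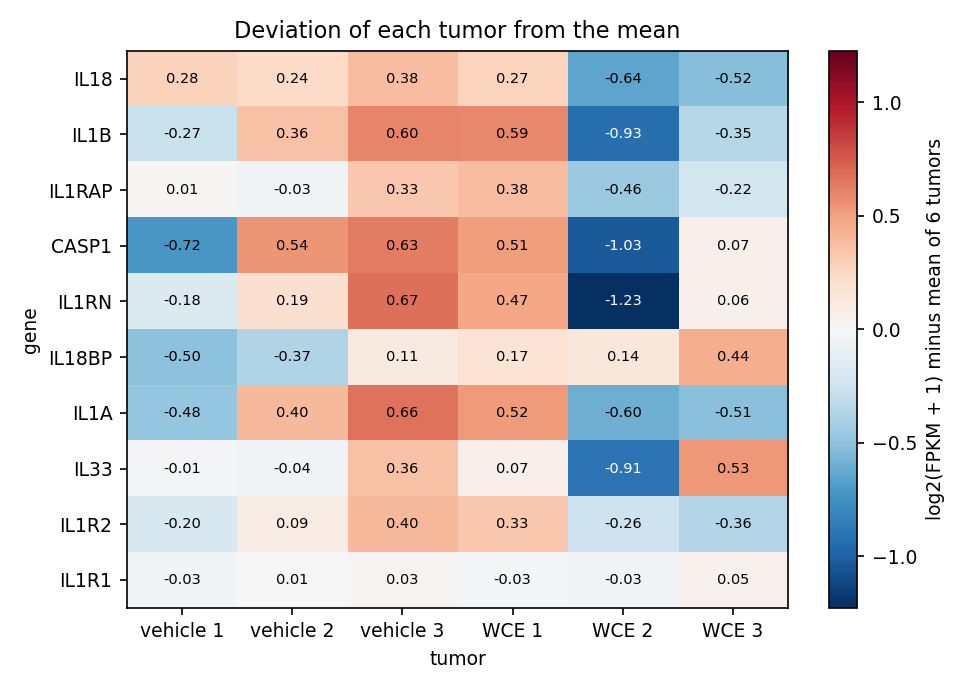
Deviation of log2(FPKM + 1) in each tumor (columns) from the mean of the 6 tumors for each member (rows), in red above and blue below the mean, with the values printed. WCE replicate 2 is blue for the IL1 genes, down to −1.23 in IL1RN, and IL18BP is below its mean in vehicle replicates 1 and 2, at −0.50 and −0.37, and above it in the other tumors.

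Genes whose pattern over the 6 tumors was most like that of a member were taken from the 3 highest Pearson correlations among 8963 entries for IL1A and 8962 for IL1B and IL18 with a mean of at least 5 FPKM. They are given as a description, since 2 of the 6 points are nearly the same library. Nearest to IL1B were ASS1 (r = 0.994), an enzyme of arginine synthesis, and SOD2 (r = 0.994), the mitochondrial superoxide dismutase. SOD2 was at 41.7, 55.4 and 59.0 FPKM in vehicle and 59.4, 35.4 and 42.3 FPKM in WCE tumors, with the same low tumors as IL1B. Nearest to IL1A were ALS2CL (r = 0.996), USPL1 (r = 0.994) and FAM110A (r = 0.993). Nearest to IL18 were RDH11 (r = 0.998), a retinol dehydrogenase, NFE2L2 (r = 0.993), the transcription factor NRF2, and BTBD3 (r = 0.993). RDH11 was at 90.3, 89.5 and 93.4 FPKM in vehicle and 90.1, 75.3 and 76.6 FPKM in WCE tumors, a smaller range than that of IL18.

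No other pathway gene passed the unadjusted threshold by limma, with 0 of 3 other ligands and receptors, 0 of 8 inflammasome entries (the CASP1 entry among them), 0 of 11 signaling genes and 0 of 5 other proteases. Of 13 other ligands and receptors only 3 passed the filter. They were the inhibitory receptor SIGIRR, at 15.9 to 20.7 FPKM in vehicle and 16.4 to 21.8 FPKM in WCE tumors, the IL33 receptor IL1RL1, with a mean of 5.66 FPKM and a log2 fold change of −0.089, and IL1RAPL2. The IL18 receptor chain IL18R1 had a mean of 0.431 FPKM and IL18RAP of 0.0359 FPKM.
Among the 8 inflammasome entries tested, GSDMD, which forms the pores of pyroptosis, had a mean of 77.6 FPKM and a log2 fold change of 0.016. CASP4, a caspase that senses lipopolysaccharide, was at 31.3, 29.1 and 31.4 FPKM in vehicle and 31.6, 33.7 and 38.1 FPKM in WCE tumors, with a log2 fold change of 0.16 (unadjusted p = 0.153 by limma). Its groups did not overlap, as in 6.37% of all entries in this direction, with vehicle replicate 3 and WCE replicate 1 nearest to each other. CARD8 had a mean of 6.41 FPKM and a log2 fold change of 0.067. The adaptor PYCARD, at 3.22 FPKM, had a log2 fold change of −0.40 (unadjusted p = 0.212 by limma) and was lowest in WCE replicate 2, at 1.17 FPKM. The sensors NLRP3 (1.62 FPKM) and AIM2 (0.580 FPKM) were low, and AIM2 was highest in the tumors that were high in IL1B, at 0.861, 1.04 and 1.15 FPKM in vehicle replicates 2 and 3 and WCE replicate 1.
The 11 signaling genes tested had a median log2 fold change of −0.021. IRAK1 (82.6 FPKM), MYD88 (40.7 FPKM), TAB2 (20.9 FPKM) and TOLLIP (19.1 FPKM) were the highest, with log2 fold changes of −0.021, −0.11, −0.18 and −0.055. TAB2 and MAP3K7 had lower values in every WCE tumor than in any vehicle tumor, as in 6.4% of all entries, again with vehicle replicate 3 or 2 close to WCE replicate 1. For MAP3K7 the gap was from 17.76 FPKM in WCE replicate 1 to 17.81 FPKM in vehicle replicate 2, and the log2 fold change was only −0.054 (unadjusted p = 0.554 by limma). TAB1, in an entry joined with LOC100506472, passed the unadjusted threshold without vehicle replicate 3 and WCE replicate 1 (log2 fold change 0.36). It was 1 of 11 signaling genes, in a comparison where 18.4% of all entries passed. Among other proteases that act on these cytokines, the calpain CAPN2, a processor of the IL1α precursor, was 0.44 higher in WCE tumors on the log2 scale (SE 0.20, unadjusted p = 0.0677 by limma). Without vehicle replicate 3 and WCE replicate 1 CAPN2 was 0.67 higher (unadjusted p = 0.0329 by limma), 1 of 5 other proteases to pass, again beside 18.4% of all entries. CAPN1 (101 FPKM) and CASP8 (10.4 FPKM) had log2 fold changes of 0.080 and 0.079.

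**Figure D5:**
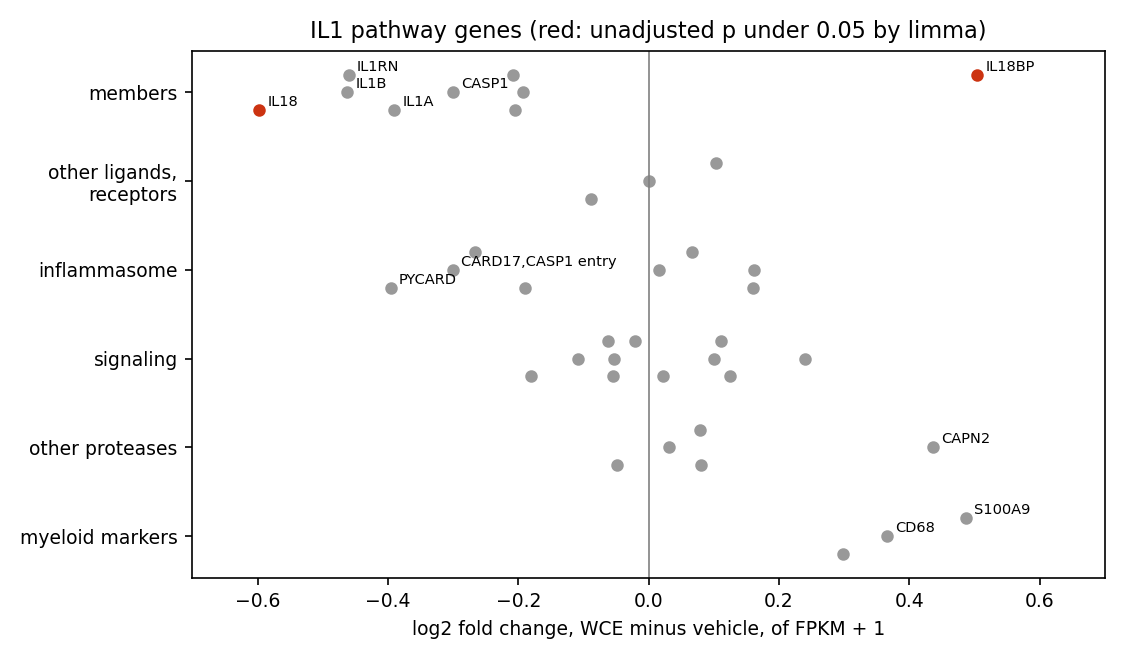
Log2 fold change (WCE minus vehicle, FPKM + 1) of each entry tested in the lists of members, other ligands and receptors, inflammasome genes, signaling genes, other proteases and myeloid markers, with 1 point per entry. The 2 red points, IL18 at −0.60 and IL18BP at 0.50, are those with an unadjusted p under 0.05 by limma.

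Markers of the line and of other cells are given beside these values, since fewer cells of a type and less RNA per cell cannot be told apart in bulk tumors. The entries are listed under human gene symbols, while host cells in these xenografts are of the mouse. Low or absent values of the myeloid, endothelial and fibroblast markers therefore cannot show how many host cells the tumors held. The keratins KRT19 (535 FPKM), KRT18 (292 FPKM) and KRT8 (228 FPKM) were abundant and KLK3 was listed at 0. EPCAM (log2 fold change −0.73) and CDH1 (−0.47) fell past the unadjusted threshold of limma, which 7.1% of all entries passed. Of 12 myeloid markers 9 were below the filter, with summed levels from 0.537 to 1.72 FPKM in vehicle and from 0.952 to 2.28 FPKM in WCE tumors. TYROBP was listed at 0 in each tumor, and the exceptions were S100A9, S100A8 and CD68, which other cells also express. S100A8 was at 23.2, 102 and 255 FPKM in vehicle and 254, 36.5 and 124 FPKM in WCE tumors. With all 6 tumors S100A9, S100A8 and CD68 had log2 fold changes of 0.49, 0.30 and 0.37, none past the threshold. Without vehicle replicate 3 and WCE replicate 1, CD68 was 0.57 higher (unadjusted p = 0.00712 by limma), where 18.4% of all entries passed. S100A9 (0.73) and S100A8 (0.45) did not pass there. PTPRC, the pan-leukocyte gene, was at 0.106, 0.480 and 0.588 FPKM in vehicle and 0.666, 0.207 and 0.122 FPKM in WCE tumors, highest in the tumors that were high in IL1B and IL1A. The other low myeloid markers did not share a single pattern. CSF1R, ITGAM and FCER1G also peaked among those tumors, whereas CD14, ADGRE1 and AIF1 peaked in WCE replicate 2 and LYZ in WCE replicate 3. All of these had means below the filter, and their part in the members' values was not tested. Of 6 endothelial markers 3 were tested, and KDR was higher in WCE tumors (log2 fold change 1.14, p by limma 0.0345 unadjusted and 0.623 adjusted). EGFL7 and PECAM1 were each at 0.14, and CDH5, TEK and VWF had means of 0.0344, 0.0461 and 0.0506 FPKM. Of 6 fibroblast markers 2 were tested, and LUM was lower (−0.85, p by limma 0.0308 unadjusted and 0.623 adjusted), with groups that overlapped. COL1A1 was at −0.44 (unadjusted p = 0.410 by limma), and COL1A2 and DCN had means of 0.244 and 0.0966 FPKM. How reads of the mouse host were handled is not given in the sources used here, and the part of these cells in the members' values was not tested.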

How the data were processed

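The authors deposited 1 table of FPKM values for 24000 gene entries, with 1 column per tumor, which the sample descriptions name. The submitters' processing notes list TopHat2 2.0.13, Cufflinks, hg19 and mm10, without roles. The annotation, any scaling between tumors and the treatment of mouse reads are not given in the sources used here. Listed starts count from 0 and were raised by 1.

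The scale of all tests was log2(FPKM + 1), for the 13287 entries whose mean reached 0.5 FPKM. WCE and vehicle tumors were tested two-sided by limma (version 3.58.1, R 4.3.3, trended variance), with Benjamini-Hochberg adjustment and a threshold of 0.05. Single members were also compared by an exact permutation test. Python 3.11.15, pandas 2.3.3 and matplotlib 3.10.9 were used for levels, depth and figures.

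The 10 members and the lists were chosen with earlier results of these data known. From each other list, the genes with an unadjusted p under 0.05 and the 4 highest in mean FPKM were named. IL18RAP, PYCARD, NLRP3, AIM2, CASP8, TAB1, MAP3K7, TYROBP, KLK3 and the low ligands were named after their values were seen. Some genes that this rule names are not reported here. On simulated data with 200 of 13287 entries changed by a log2 change of 1, the comparison recovered 71.5% and called 7 unchanged entries. The simulated tumors were drawn independently, unlike the nearly identical vehicle replicate 3 and WCE replicate 1. That rate is over entries of all spreads, so it cannot be carried over to members of wide spread, such as the CASP1 entry (standard error 0.47). The alternatives were the pseudocount, the filter, scaling, the trend, weights, a replicate block and tumors left out. A member's own read number is unknown, so no counting interval is given.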

Additional observations from a re-analysis of the deposited data

How the results depend on the processing

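In the comparison as designed, limma called 2 members and 944 of 13287 entries at an unadjusted threshold of 0.05, and 0 members and 1 entry at an adjusted one. Of 126 values of the 9 members under alternatives, 107 kept their direction and their side of the unadjusted threshold, 5 passed it, 10 lost it and 4 changed direction. The values that changed direction were CASP1 (0.14), IL1RN (0.038) and IL33 (0.19) without WCE replicate 2, and IL33 (0.10) with limma array weights. No filter on low values gave 0 members and 0 entries with an adjusted p under 0.05, and 0 members with an unadjusted one beside 1051 of 24000 entries. Array weights gave 5 members (IL1A, IL1B and IL1R2 beside IL18 and IL18BP) and 3201 entries at the unadjusted threshold. Without vehicle replicate 3 and WCE replicate 1, 2449 entries passed the unadjusted and 5 the adjusted threshold, with 2 and 0 members. For none of these shifts was the cause tested.

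Leaving out 1 tumor at a time gave 0 to 4 members and 219 to 2033 entries at the unadjusted threshold, and 0 members and 1 to 7 entries at the adjusted one. The member count was 4 without WCE replicate 1, 1 without vehicle replicate 3 or WCE replicate 2, and 0 when vehicle replicate 1, vehicle replicate 2 or WCE replicate 3 was left out. These fits put the log2 fold change of CASP1 between −0.73 and 0.14, that of IL1RN between −0.81 and 0.038 and that of IL33 between −0.53 and 0.19. The ranges were −0.75 to −0.16 for IL1A, −0.87 to −0.11 for IL1B, −0.40 to −0.042 for IL1R2, −0.44 to −0.026 for IL1RAP, −0.88 to −0.42 for IL18 and 0.38 to 0.69 for IL18BP. Upper-quartile scaling gave 218 higher and 704 lower entries, against 502 and 442 as deposited, and IL18 and IL18BP kept their directions. With a replicate block, 2 members and 1049 entries passed the unadjusted threshold and 0 and 1 the adjusted one. Same-numbered tumors share only a number, and the correlations of their deviations from the group means were −0.241, 0.16 and −0.0931.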

Other observations

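The epithelial cytokines of the IL36 branch and IL37 were near the floor of the table. IL36G, an agonist made by epithelia, was at 0.0735, 0.253 and 0.522 FPKM in vehicle-treated and at 0.570, 0.167 and 0.119 FPKM in WCE-treated tumors, with its highest values in vehicle replicate 3 and WCE replicate 1. IL36RN, its antagonist, was at 0.201, 0.344 and 0.353 FPKM in vehicle-treated and at 0.148, 0.0436 and 0.116 FPKM in WCE-treated tumors. These levels were under the filter and had no test, and groups that separated in this direction were 6.4% of the entries that passed it. IL37, a member that dampens inflammation, was listed at 0 in vehicle replicate 1 and WCE replicate 1 and reached 0.576 FPKM in vehicle replicate 2. IL36A, IL36B and the receptor IL1RL2 were listed at 0 in each tumor.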
